A study of Homo sapiens with 12 samples.

Results

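Lipid droplet and fatty acid genes were followed in BCPAP, an established cell line from a human papillary thyroid cancer, while the NADPH oxidase gene NOX4 was silenced and oxygen was lowered. The 10 genes were the rows of the deposited gene table named HILPDA, PLIN2, PLIN3, PNPLA2, LPIN1, DGAT1, DGAT2, FASN, SCD and CPT1A, out of 58735 genes in all, and were chosen by name. All 10 passed the filter on low counts, which left 17277 genes for testing. The study asked what part NOX4 takes in the adaptation of these cells to low oxygen. Cells in DMEM with 10% fetal bovine serum were transfected with an siRNA against NOX4 (siNOX4) or a scrambled siRNA (siControl) and kept at 1% oxygen (hypoxia) or 20% oxygen (normoxia), for a time that the labels do not give. The 4 groups were siNOX4 hypoxia, siControl hypoxia, siNOX4 normoxia and siControl normoxia, each with 3 libraries of total RNA from separate transfections. All groups therefore share the transfection and the line, and an siRNA lowers a transcript without removing it.

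Cells store surplus fatty acids as triglyceride in lipid droplets, whose surface is coated by perilipins. Triglyceride is built from acyl-CoA and glycerol phosphate, with lipins and DGAT enzymes at the last steps, and is broken down again by lipases, the first of them ATGL, the product of PNPLA2. Fatty acids are made by FASN, desaturated by SCD in a reaction that uses molecular oxygen, and burnt in mitochondria after CPT1A has linked them to carnitine. Hypoxia is known to raise HILPDA, a target of hypoxia-inducible factors whose product inhibits ATGL, and to favour droplet storage over oxidation in many tumour cells.

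Hypoxia changed 5 of the 10 genes in siNOX4 cells, where it changed 56.6% of all genes tested, and 6 of the 10 in siControl cells, where it changed 53.3% of all genes. A gene was called at an adjusted p under 0.05 in edgeR's quasi-likelihood test, with the adjustment over all genes tested. The droplet gene HILPDA was higher at 1% oxygen with either siRNA, and LPIN1, FASN, SCD and CPT1A were lower with either siRNA. The coat gene PLIN3 was called higher with siControl, by a small amount that depended on 2 siControl normoxia libraries. NOX4 silencing changed only DGAT1 of the 10 by the same test in normoxia, where 15.0% of all genes were called. The DGAT1 call held in 2 of the 12 fits that left out 1 library. Calls over all genes ranged from 2 to 9866 in those 12 fits, against 2593 with all libraries. A fit of only the groups compared called 0 of all genes in normoxia. In hypoxia NOX4 silencing changed 0 of the 10, where 0.00% of all genes were called.

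NOX4 was counted 4, 3 and 4 times in the siNOX4 hypoxia libraries, against 17, 8 and 13 times in siControl hypoxia. In normoxia it was counted 1, 5 and 3 times in the siNOX4 libraries and 8, 13 and 6 times in the siControl libraries. The siNOX4 libraries thus lay below the siControl libraries at each oxygen level, on few counts. Summed counts per library ranged from 16559386 to 21282835. Among thyroid markers, the transcription factor genes PAX8, NKX2-1, FOXE1 and HHEX were detected in every library, while TG, TSHR and SLC5A5 stayed at or under 0.318 CPM, where CPM is a count scaled to library size by the TMM method. Of 6 epithelial markers, the keratin genes KRT7, KRT8 and KRT18 were at 169.5 CPM or more in every library, EPCAM was at 2.36 to 6.42 CPM, KRT19 did not exceed 0.363 CPM and CDH1 did not exceed 0.257 CPM. Adipocyte markers ADIPOQ and LEP had 0 counts in every library. The 8 adipocyte markers summed to 4.83 to 6.26 CPM in siNOX4 hypoxia, 4.64 to 5.98 CPM in siControl hypoxia, 31.8 to 34.8 CPM in siNOX4 normoxia and 27.3 to 34.8 CPM in siControl normoxia. PPARG, a lipid-sensing nuclear receptor gene, made up most of that sum in every library, with PLIN4 and PLIN1 among the rest, and its part in the results below was not tested. The 6 macrophage markers summed to 4.72 to 6.47 CPM in siNOX4 hypoxia, 4.90 to 5.43 CPM in siControl hypoxia, 1.86 to 3.20 CPM in siNOX4 normoxia and 1.92 to 9.15 CPM in siControl normoxia, and the leukocyte marker PTPRC did not exceed 0.333 CPM. The 5 endothelial markers summed to 22.9 to 44.9 CPM over all libraries, led by TIE1 in most of them, with VWF and CDH5 at or under 0.670 CPM. The 7 fibroblast markers summed to 7.84 to 28.4 CPM over all libraries, with PDGFRA at or under 0.333 CPM. In such bulk RNA, fewer cells of a type and less RNA per cell cannot be told apart.

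Replicates 1 and 3 of siControl normoxia stood apart from replicate 2, and some of the 10 genes were among those affected. PAX8 was at 1735 and 1640 CPM in replicates 1 and 3 and at 533 CPM in replicate 2, against 457 to 551 CPM in siNOX4 normoxia. Some but not all markers of other cell types were also higher in replicates 1 and 3 than in replicate 2. CD14, of macrophages, was at 7.14 and 5.97 CPM against 0.804 CPM, PECAM1, of endothelium, at 30.6 and 22.2 CPM against 2.66 CPM, and COL3A1, of fibroblasts, at 10.6 and 11.4 CPM against 0 counts. By contrast, the endothelial gene TIE1 peaked in replicate 2 at 26.85 CPM, with 11.16 CPM for replicate 1 and 15.35 CPM for replicate 3. The macrophage gene CD68 was counted 5, 8 and 4 times in replicates 1, 2 and 3. The fibroblast gene COL1A1 differed little, at 11.81, 11.32 and 10.23 CPM in the same order. Markers of a cell type thus did not move together, and their part in the results was not tested. The median gene had a ratio of highest to lowest library of 1.56 in siControl normoxia and of 1.16 to 1.21 in the other groups. Oxygen results in siControl cells and the siNOX4 comparison in normoxia are therefore given with all libraries and with replicates 1 and 3 left out. Leaving them out keeps 1 siControl normoxia library and assumes that this library varies like the other groups. The fit shares 1 estimate of a gene's spread over all groups. The spread of siControl normoxia therefore also enters the errors of comparisons that do not use this group. For hypoxia in siNOX4 cells, 5 of the 10 genes were called with all libraries and 9 in a fit of only the groups compared. Over all genes these fits called 9776 of 17277 and 11403 of 16294.

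The 10 genes spanned about 3 orders of magnitude in level. Levels between genes are compared here only in the authors' FPKM, which divide a count by gene length and a library total. In siControl normoxia the order of mean FPKM was PNPLA2 (72.2 ± 20.9, SD, n = 3), SCD (60.5 ± 26.1), PLIN3 (39.1 ± 6.82), FASN (33.7 ± 1.55), CPT1A (17.6 ± 1.11), HILPDA (16.4 ± 5.78), DGAT1 (5.92 ± 0.190), LPIN1 (4.30 ± 0.439), DGAT2 (1.32 ± 0.486) and PLIN2 (0.0757 ± 0.0725). The library values of the top 4 genes overlapped between neighbours in that order, as did those of CPT1A and HILPDA, while the others were separate. In siNOX4 normoxia the neighbours LPIN1 (4.77 ± 0.456 FPKM) and DGAT1 (4.71 ± 0.127 FPKM) overlapped, and every other pair of neighbours was separate. The lipase gene PNPLA2 led in every group, and the droplet coat gene PLIN2 came last in every group.

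At 1% oxygen the order changed in the middle. In siControl hypoxia PLIN3 (48.1 ± 0.144 FPKM, SD, n = 3) stood above SCD (34.9 ± 1.51 FPKM), and HILPDA (29.9 ± 0.417 FPKM) above FASN (26.4 ± 0.608 FPKM) and CPT1A (10.8 ± 0.153 FPKM). No neighbours overlapped there. With siNOX4 in hypoxia the same order held, with SCD (34.6 ± 1.92 FPKM) and HILPDA (31.5 ± 1.93 FPKM) overlapping. PLIN2 had 0.231 ± 0.0630 FPKM in siNOX4 hypoxia and 0.160 ± 0.0337 FPKM in siControl hypoxia, far below PLIN3 in the same groups.

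The sequences just before the transcription start are shown for PLIN2 and PLIN3, the pair of coat genes, and for SCD, the member with the largest fall in siNOX4 cells. RefSeq promoter entries (GRCh38.p14) matched 6 of the 10 genes, and 250 bases upstream of the start were searched on both strands. Capitals mark ACGTG and GCGTG, the core letters read by hypoxia-inducible factors, and their reverse complements. Within PLIN2 the capitals CACGTG are a palindrome that holds ACGTG on both strands, so these 2 matches share bases.
PLIN2, chr9:19127493-19127742, minus strand: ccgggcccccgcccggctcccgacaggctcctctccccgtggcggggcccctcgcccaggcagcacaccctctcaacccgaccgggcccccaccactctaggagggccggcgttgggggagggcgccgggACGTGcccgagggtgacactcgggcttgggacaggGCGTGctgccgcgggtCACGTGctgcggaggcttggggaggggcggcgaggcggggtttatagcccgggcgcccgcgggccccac
PLIN3, chr19:4867668-4867917, minus strand: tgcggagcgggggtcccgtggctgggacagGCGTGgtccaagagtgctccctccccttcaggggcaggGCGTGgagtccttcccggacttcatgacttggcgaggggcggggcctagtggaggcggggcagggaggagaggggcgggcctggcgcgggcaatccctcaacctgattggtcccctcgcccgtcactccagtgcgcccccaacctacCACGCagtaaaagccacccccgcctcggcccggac
SCD, chr10:100346983-100347232, plus strand: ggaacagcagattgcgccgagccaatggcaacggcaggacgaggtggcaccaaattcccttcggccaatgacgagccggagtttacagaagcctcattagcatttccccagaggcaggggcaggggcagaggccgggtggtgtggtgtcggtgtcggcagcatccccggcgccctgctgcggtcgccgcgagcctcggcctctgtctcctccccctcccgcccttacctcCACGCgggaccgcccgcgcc

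PLIN2 held 4 matches of ACGTG or GCGTG, the nearest ending 64 bases before the start, PLIN3 held 3 and SCD held 1. The windows of PNPLA2 and CPT1A held none, and 1 of 3 LPIN1 entries held 1. At least 1 match was found in 43.2% of the 35116 RefSeq promoters, at least 3 in 7.76% and at least 4 in 3.22%. CACGTG by itself was found in 6.34%. The letters CCAAT, read by NF-Y, occurred once in the PLIN3 window and 2 times in the SCD window, and in 32.0% of all promoters. A match describes these letters and is not a bound site, and the PLIN2 gene span in GENCODE 29 extends upstream of this RefSeq start.

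HILPDA (ENSG00000135245, GRCh38 chr7:128455849-128458418, plus strand), which encodes the small droplet protein that inhibits ATGL, was higher in hypoxia with either siRNA. It had 70.4, 65.4 and 62.7 CPM in the siNOX4 hypoxia libraries, against 48.7, 47.8 and 38.2 CPM in siNOX4 normoxia. With siControl it had 61.7, 63.1 and 63.5 CPM in hypoxia, against 24.6, 47.8 and 31.1 CPM in normoxia. Every hypoxia library lay above every normoxia library, and the normoxia libraries with siControl were the most spread. The log2 fold change, hypoxia over normoxia, was 0.56 with siNOX4 (SE 0.18, adjusted p = 0.0206, edgeR quasi-likelihood test) and 0.86 with siControl (SE 0.19, adjusted p = 0.0019). Without replicates 1 and 3 of siControl normoxia, the siControl value was 0.39 (SE 0.12, adjusted p = 0.0079), so HILPDA stayed called at less than the size seen with all libraries. The call in siNOX4 cells ended without siNOX4 normoxia replicate 3 (adjusted p = 0.0917) and without siNOX4 hypoxia replicate 1 (adjusted p = 0.0671). Reads of 2 short transcripts on the same strand could add to the HILPDA count.

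PLIN2 (ENSG00000147872, chr9:19108375-19149290, minus strand), the perilipin that coats droplets in most cell types, was close to the detection limit here. It was counted 17, 23 and 30 times in siNOX4 hypoxia, against 10, 9 and 6 times in siNOX4 normoxia. With siControl it was counted 13, 15 and 23 times in hypoxia, against 0, 12 and 7 times in normoxia. All 3 siNOX4 hypoxia libraries exceeded those of siNOX4 normoxia, and each siControl hypoxia library exceeded those of siControl normoxia in counts, though not after scaling to CPM. The 0 in siControl normoxia replicate 1 allows up to 3 counts, or 0.177 CPM, counting error only. The log2 fold changes of 1.16 with siNOX4 (SE 0.59, adjusted p = 0.109) and 1.09 with siControl (SE 0.63, adjusted p = 0.164) had the largest errors of the 10 genes, and neither passed the edgeR test. With siNOX4 PLIN2 was called in 2 of the 12 edgeR fits that left out 1 library. Without siControl normoxia replicates 1 and 3 PLIN2 was at 0.16 with siControl (SE 0.56, adjusted p = 0.830), and without replicate 2 it was called at 1.95 (adjusted p = 0.0144).

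PLIN3 (ENSG00000105355, chr19:4838341-4867768, minus strand) encodes a perilipin that moves between cytosol and new droplets. It had 137, 151 and 135 CPM in siNOX4 hypoxia, against 123, 114 and 133 CPM in siNOX4 normoxia. The siControl libraries had 137, 138 and 137 CPM in hypoxia, against 106, 133 and 96.1 CPM in normoxia. Hypoxia libraries were above normoxia libraries with either siRNA, by a narrow margin in both. The log2 fold change was 0.19 with siNOX4 (SE 0.11, adjusted p = 0.156) and 0.30 with siControl (SE 0.11, adjusted p = 0.0396), of which the edgeR test called the one with siControl. That call ended without siControl normoxia replicates 1 and 3, at 0.05 (SE 0.09, adjusted p = 0.709), and without 7 of the 12 libraries when each was left out singly. With siNOX4 PLIN3 was called in 1 of the 12 edgeR fits that left out 1 library. An antisense gene overlaps PLIN3, as others do PNPLA2, LPIN1 and DGAT2, and the library kit (Illumina TruSeq RNA) is taken as unstranded.

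PNPLA2 (ENSG00000177666, chr11:818902-825573, plus strand), the gene of the lipase ATGL that HILPDA inhibits, passed in neither oxygen comparison with all libraries. It had 327, 301 and 309 CPM in siNOX4 hypoxia, against 383, 358 and 344 CPM in siNOX4 normoxia. In siControl cells the levels were 333, 320 and 347 CPM in hypoxia, against 249.8, 373 and 221 CPM in normoxia. The siNOX4 hypoxia libraries lay below siNOX4 normoxia, while siControl hypoxia fell between replicate 2 and replicates 1 and 3 of siControl normoxia. Its log2 fold change was −0.21 with siNOX4 (SE 0.15, adjusted p = 0.251) and 0.25 with siControl (SE 0.15, adjusted p = 0.190, edgeR). Without replicates 1 and 3 the siControl value turned to −0.16 (SE 0.09, adjusted p = 0.136), and without replicate 2 it was called higher at 0.51 (adjusted p = 4.4e-06).

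**Figure D1:**
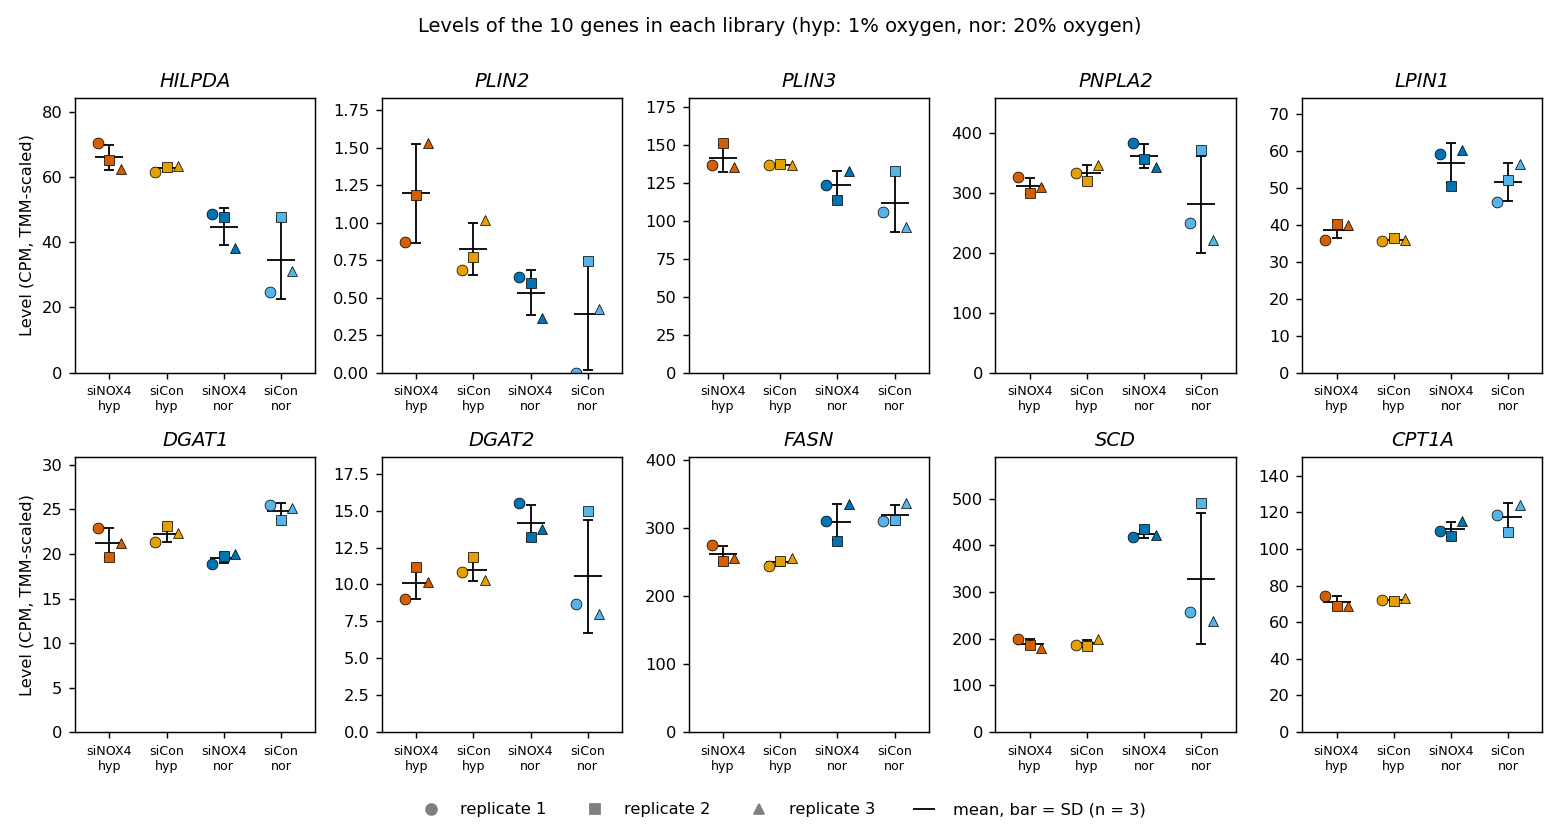
TMM-scaled CPM (y axis from 0, 1 panel per gene) of the 10 genes in the 12 libraries, with the marker shape giving the replicate number and bars the mean and SD of 3 libraries. HILPDA stands higher and LPIN1, FASN, SCD and CPT1A lower at 1% oxygen, and siControl normoxia replicates 1 and 3 lie well below replicate 2 for SCD, PNPLA2 and DGAT2.

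LPIN1 (ENSG00000134324, chr2:11677595-11827409, plus strand), a phosphatidate phosphatase that makes diacylglycerol, was lower in hypoxia with either siRNA. It had 36.1, 40.2 and 40.03 CPM in siNOX4 hypoxia, against 59.2, 50.6 and 60.5 CPM in siNOX4 normoxia. With siControl it had 35.7, 36.6 and 35.98 CPM in hypoxia, against 46.3, 52.2 and 56.7 CPM in normoxia. No hypoxia library reached the lowest normoxia library. The fall measured −0.55 on the log2 scale with siNOX4 (SE 0.10, adjusted p = 5.6e-04) and −0.52 with siControl (SE 0.10, adjusted p = 9.2e-04) by edgeR. LPIN1 was at −0.53 (SE 0.11, adjusted p = 2.9e-04) without siControl normoxia replicates 1 and 3.

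DGAT1 and DGAT2 encode unrelated enzymes that add the last fatty acid to diacylglycerol, and neither passed for oxygen with all libraries. DGAT2 (ENSG00000062282, chr11:75759512-75801535, plus strand) had 8.98, 11.2 and 10.2 CPM in siNOX4 hypoxia, against 15.5, 13.2 and 13.7 CPM in siNOX4 normoxia. The siControl levels were 10.9, 11.8 and 10.3 CPM in hypoxia, against 8.68, 14.97 and 7.98 CPM in normoxia. Hypoxia was thus below normoxia in every siNOX4 library, and in siControl only below replicate 2. The log2 fold change of DGAT2 was −0.48 with siNOX4 (SE 0.20, adjusted p = 0.0601) and 0.06 with siControl (SE 0.21, adjusted p = 0.821, edgeR). With siNOX4 DGAT2 was called in 2 of the 12 edgeR fits that left out 1 library. Leaving out siControl normoxia replicates 1 and 3 put DGAT2 at −0.45 with siControl (SE 0.16, adjusted p = 0.0240), which turned its direction and called it. Without siControl normoxia replicate 2 it was called the other way, at 0.41 (adjusted p = 0.0161).

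DGAT1 (ENSG00000185000, on chromosome 8) had 22.9, 19.6 and 21.3 CPM in siNOX4 hypoxia, against 18.9, 19.8 and 19.9 CPM in siNOX4 normoxia. In siControl cells it had 21.3, 23.1 and 22.4 CPM in hypoxia, against 25.5, 23.8 and 25.2 CPM in normoxia. The siNOX4 groups overlapped, and siControl hypoxia lay below siControl normoxia. The log2 fold change was 0.12 with siNOX4 (SE 0.10, adjusted p = 0.296) and −0.16 with siControl (SE 0.10, adjusted p = 0.188) by edgeR, and −0.10 with siControl (SE 0.12, adjusted p = 0.534) without replicates 1 and 3. DGAT1 overlaps HSF1 on the opposite strand, and unstranded counts cannot tell such reads apart.

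FASN (ENSG00000169710, chr17:82078333-82098332, minus strand), the synthase that makes palmitate, was modestly lower in hypoxia. It had 276, 252 and 257 CPM in siNOX4 hypoxia, against 310.2, 282 and 335 CPM in siNOX4 normoxia. With siControl it had 244, 252 and 256 CPM in hypoxia, against 311, 312 and 337 CPM in normoxia. The groups did not overlap with either siRNA, and the gap was wider with siControl. The log2 fold change was −0.24 with siNOX4 (SE 0.08, adjusted p = 0.0280) and −0.35 with siControl (SE 0.08, adjusted p = 0.0040) by edgeR. Without siControl normoxia replicates 1 and 3 FASN was at −0.31 with siControl (SE 0.09, adjusted p = 0.0074). The call in siNOX4 cells ended with upper-quartile scaling (adjusted p = 0.122), without a filter (adjusted p = 0.158) and in 4 of the 12 fits that left out 1 library.

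SCD (ENSG00000099194, chr10:100347124-100364834, plus strand), the desaturase that turns stearate into oleate, had the largest fall among the 10 genes with either siRNA when all libraries were used. It had 199.8, 186 and 180.1 CPM in siNOX4 hypoxia, against 418, 435 and 422 CPM in siNOX4 normoxia. The siControl libraries had 186, 184 and 199.1 CPM in hypoxia, against 258, 491 and 238 CPM in normoxia. All 6 hypoxia libraries lay within 180.1 to 199.8 CPM, and the siControl normoxia libraries differed by a factor of 2.06. The fall measured −1.17 on the log2 scale with siNOX4 (SE 0.21, adjusted p = 4.7e-04) and −0.79 with siControl (SE 0.21, adjusted p = 0.0063) by edgeR. Against siControl normoxia replicate 2 as the lone library SCD was at −1.37 (SE 0.08, adjusted p = 2.5e-11), and against replicates 1 and 3 together it was at −0.38 (SE 0.07, adjusted p = 8.5e-05). Thus SCD was called lower whichever of these libraries were used, with a size that depended on them. Without replicate 2 the siControl fall of SCD was smaller than that of CPT1A (−0.74) and LPIN1 (−0.50).

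CPT1A (ENSG00000110090, chr11:68754620-68844410, minus strand) encodes the carnitine acyltransferase at the gate of mitochondrial fatty acid oxidation. It had 74.5, 68.97 and 69.06 CPM in siNOX4 hypoxia, against 109.8, 107 and 115 CPM in siNOX4 normoxia. With siControl it had 72.0, 71.3 and 73.1 CPM in hypoxia, against 119, 109 and 124 CPM in normoxia. Both pairs of groups were far apart relative to their spread. The log2 fold change was −0.64 with siNOX4 (SE 0.08, adjusted p = 2.4e-05) and −0.70 with siControl (SE 0.08, adjusted p = 1.3e-05), the smallest adjusted p of the 10 genes by edgeR in each comparison. CPT1A was at −0.59 with siControl (SE 0.08, adjusted p = 5.4e-06) without replicates 1 and 3.

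Read against all genes, the number of calls among the 10 was not high with all libraries. With siNOX4, 1 was called higher and 4 lower, where the test called 56.6% of all genes (28.8% higher, 27.8% lower), and 9 of the 10 had no overlap between hypoxia and normoxia libraries, as did 71.3% of all genes. With siControl, 2 were called higher and 4 lower, where 53.3% of all genes were called (25.7% higher, 27.6% lower), and 7 had no overlap, as did 56.9% of all genes. The median log2 fold change of the 10 genes was −0.23 with siNOX4, beside 0.03 over all genes, and −0.05 with siControl, beside −0.01 over all genes. Without siControl normoxia replicates 1 and 3, the siControl calls were 1 higher (HILPDA) and 5 lower (LPIN1, DGAT2, FASN, SCD and CPT1A), where the test called 26.3% of all genes higher and 26.75% lower. The same fit called 9 of the 10 in siNOX4 cells (3 higher, 6 lower, all but DGAT1), where it called 34.04% of all genes higher and 33% lower.

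**Figure D2:**
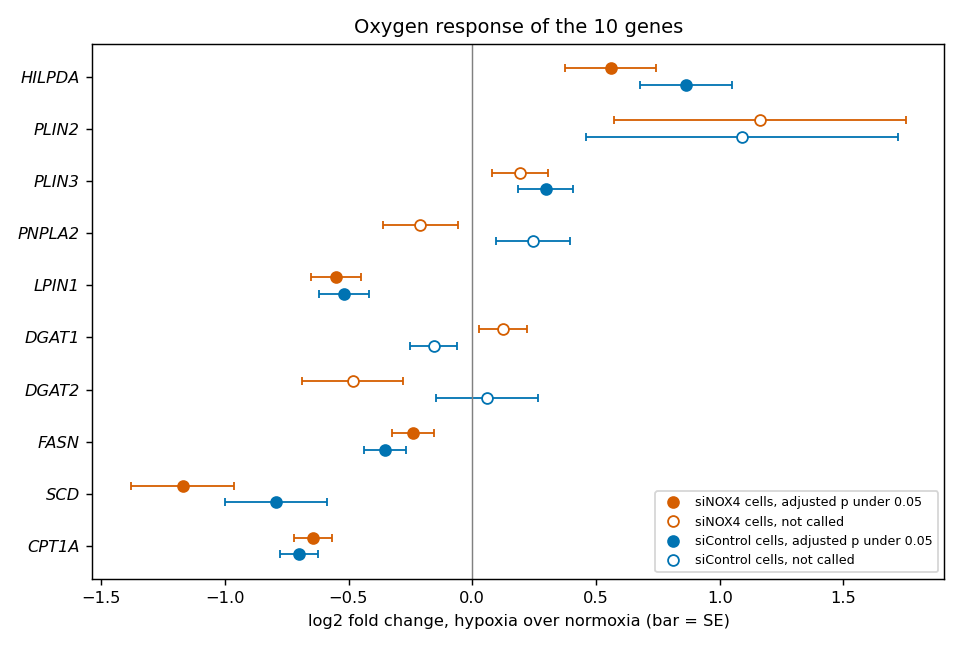
Log2 fold change of hypoxia over normoxia for the 10 genes, with bars for the SE, siNOX4 cells above siControl cells in each row, and filled points for an adjusted p under 0.05 by edgeR. HILPDA lies to the right and LPIN1, FASN, SCD and CPT1A to the left of 0 with either siRNA, while PNPLA2, DGAT1 and DGAT2 lie on opposite sides of 0 in siNOX4 and siControl cells and are open in both.

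NOX4 silencing at 20% oxygen left 9 of the 10 genes without a call. DGAT1 was the exception, with 18.9, 19.8 and 19.9 CPM in siNOX4 normoxia, against 25.5, 23.8 and 25.2 CPM in siControl normoxia, a log2 fold change of −0.35 (SE 0.10, adjusted p = 0.0380, edgeR). Its groups did not overlap, and it was the only one of the 10 of which this held. The test called 15.0% of all genes in this comparison (3.97% higher, 11.0% lower), and 22.4% of all genes had no overlap. The DGAT1 call was lost with upper-quartile scaling (adjusted p = 0.0616), without a filter (adjusted p = 0.188), in a fit of only the groups compared (adjusted p = 0.207) and without siControl normoxia replicates 1 and 3 (−0.29, SE 0.12, adjusted p = 0.743). It was also lost in 10 of the 12 fits that left out 1 library. Over those 12 fits the calls among all genes ranged from 2 to 9866. The direction of DGAT1 was lower in each of these.

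The siControl normoxia libraries differed from each other by gene. Replicate 2 was 1.98 times the mean of replicates 1 and 3 for SCD, 1.80 times for DGAT2, 1.72 times for HILPDA, 1.58 times for PNPLA2 and 1.32 times for PLIN3. It was close to that mean for LPIN1 (1.01), FASN (0.964), DGAT1 (0.940) and CPT1A (0.897). Replicate 1 lay below all siNOX4 normoxia libraries for 7 of the 10 genes, and replicate 3 for 5. Replicate 2 lay below them for 0 genes, within their range for 6 and above it for 4. Over all tested genes, 40.5%, 25.2% and 39.8% lay below the siNOX4 normoxia range in replicates 1, 2 and 3.

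The sign of the siNOX4 difference in normoxia depended on which siControl libraries entered. With all of them SCD had a log2 fold change of 0.37 (SE 0.21, adjusted p = 0.198), HILPDA of 0.38 (SE 0.19, adjusted p = 0.150), DGAT2 of 0.42 (SE 0.21, adjusted p = 0.145) and PNPLA2 of 0.36 (SE 0.15, adjusted p = 0.101), none called by edgeR. Without replicate 2 edgeR called 26.68% of all genes higher and 28.25% lower in siNOX4 cells. Of the 10 genes it called DGAT1 lower and 5 higher, with SCD at 0.79 (adjusted p = 4.5e-09), DGAT2 at 0.77 (adjusted p = 7.1e-05), HILPDA at 0.70 (adjusted p = 8.7e-06), PNPLA2 at 0.63 (adjusted p = 3.4e-07) and PLIN3 at 0.30 (adjusted p = 0.0028). Against replicate 2 as the lone library the same 5 genes had the opposite sign, with SCD at −0.21, DGAT2 at −0.08, HILPDA at −0.09, PNPLA2 at −0.04 and PLIN3 at −0.11. That fit keeps 1 siControl normoxia library, so only the sizes are read from it here. LPIN1 (0.13), FASN (−0.05) and CPT1A (−0.08) moved little with all libraries, and PLIN2 (0.45, SE 0.69) rested on 0 to 12 counts. The comparisons of hypoxia and of siNOX4 in these cells share the siControl normoxia libraries.

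**Figure D3:**
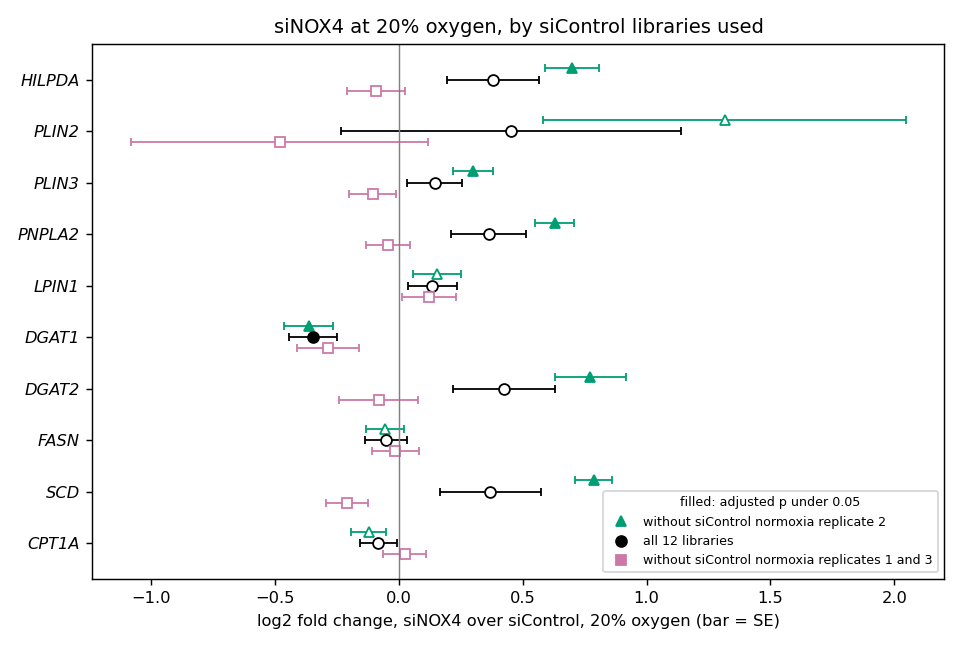
Log2 fold change of siNOX4 over siControl at 20% oxygen for the 10 genes, with bars for the SE and filled points for an adjusted p under 0.05 by edgeR, from fits without siControl normoxia replicate 2 (triangles), with all 12 libraries (circles) and without replicates 1 and 3 (squares). HILPDA, PLIN3, PNPLA2, DGAT2 and SCD lie right of 0 without replicate 2 and left of 0 without replicates 1 and 3, and DGAT1 lies left of 0 in all 3 fits.

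In hypoxia, where no library stood apart in this way, siNOX4 and siControl levels of the 10 genes lay close together. HILPDA averaged 66.2 ± 3.93 CPM in siNOX4 hypoxia and 62.8 ± 0.934 CPM in siControl hypoxia (SD, n = 3). SCD averaged 189 ± 10.1 CPM in siNOX4 hypoxia and 189.9 ± 8.09 CPM in siControl hypoxia, and CPT1A averaged 70.9 ± 3.19 CPM in siNOX4 hypoxia and 72.1 ± 0.939 CPM in siControl hypoxia. Each of the 10 genes had overlapping groups. The log2 fold changes ran from −0.12 (DGAT2) to 0.10 (LPIN1, SE 0.10), apart from the thinly counted PLIN2 at 0.52 (SE 0.54). The edgeR test called 0 of the 10 genes, and none had an unadjusted p under 0.05. It called 0.00% of all genes, with 448 of 17277 at an unadjusted p under 0.05, and DESeq2 called 2 genes, none of them among the 10. Groups did not overlap for 16.6% of all genes. A missed threshold does not show that levels were equal, and the SE of these log2 fold changes ran from 0.08 for CPT1A to 0.54 for PLIN2.

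The test of whether the oxygen response differed between the siRNAs also called 0 of the 10 genes and 0.00% of all genes. None of the 10 had an unadjusted p under 0.05, beside 3609 of all genes, and DESeq2 called 59 genes. The largest differences in log2 fold change, siNOX4 minus siControl, were −0.54 for DGAT2 (SE 0.29, adjusted p = 0.281), −0.46 for PNPLA2 (SE 0.21, adjusted p = 0.243), −0.38 for SCD (SE 0.29, adjusted p = 0.433) and −0.30 for HILPDA (SE 0.26, adjusted p = 0.480). DGAT1 differed by 0.28 (SE 0.14, adjusted p = 0.255). Without siControl normoxia replicate 2, edgeR called SCD (−0.80, adjusted p = 7.1e-07), PNPLA2 (−0.72, adjusted p = 5.1e-06), DGAT2 (−0.89, adjusted p = 4.6e-04) and HILPDA (−0.62, adjusted p = 8.7e-04), all with a lower value, where 20.52% of all genes were called with a lower value and 22.33% with a higher one. Without replicates 1 and 3 the differences were 0.20 for SCD, −0.05 for PNPLA2, −0.04 for DGAT2 and 0.17 for HILPDA.

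Around these 10 genes, 102 others of the same pathways were listed in 6 groups, of which 82 were tested. With siNOX4, hypoxia raised 18 and lowered 31 of the 82, and with siControl it raised 28 and lowered 28. Without siControl normoxia replicates 1 and 3, 18 were higher and 33 lower of 85 with siControl. The lists were chosen with results of these data known, and their counts stand beside the shares of all genes given above.

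Among lipolysis genes, 1 gene rose with either siRNA. G0S2, whose product inhibits ATGL as HILPDA does, averaged 365 ± 67.2 CPM in siNOX4 hypoxia and 456 ± 40.9 CPM in siControl hypoxia (SD, n = 3). In normoxia it averaged 76.8 ± 7.05 CPM with siNOX4 and 65.8 ± 20.5 CPM with siControl. Its log2 fold change was 2.25 with siNOX4 (SE 0.20, adjusted p = 2.4e-06) and 2.79 with siControl (SE 0.20, adjusted p = 5.9e-07, edgeR). LIPA, the lysosomal acid lipase gene, was lower by −0.92 and −0.60 on the log2 scale in siNOX4 and siControl cells. ABHD5, the gene of the ATGL co-activator, was called lower with siNOX4 (−0.56, adjusted p = 0.0095) but not with siControl (0.05), where leaving out replicates 1 and 3 of siControl normoxia gave −0.38 (adjusted p = 0.0023). LIPE, hormone-sensitive lipase, was not called (0.10 and 0.11). Of the 6 lipolysis genes, 1 rose and 3 fell with siNOX4, and 1 rose and 1 fell with siControl. The siControl count was 1 higher and 3 lower without siControl normoxia replicates 1 and 3, with G0S2 at 2.35, LIPA at −0.75 and LIPE at 0.42 (not called).

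Droplet protein genes fell or were not called. Of 7 tested, 0 rose and 4 fell with either siRNA, and these were HSD17B11, a droplet-bound dehydrogenase (−0.73 with siNOX4, −0.78 with siControl), LDAH, a droplet hydrolase (−0.47 and −0.58), AUP1, a droplet-bound ubiquitination factor (−0.36 and −0.24), and PLIN4, a further perilipin (−1.94 and −1.44). PLIN4 was at 0.564 ± 0.0490 CPM in siNOX4 hypoxia and 0.752 ± 0.229 CPM in siControl hypoxia, against 2.18 ± 0.738 CPM in siNOX4 normoxia and 2.03 ± 0.643 CPM in siControl normoxia, and its siControl call ended without replicates 1 and 3 (−0.80, adjusted p = 0.187). RAB18, a droplet GTPase gene, was not called with all libraries (−0.19 and −0.05), and it was called lower with siNOX4 in 2 of 21 alternative fits. When siControl normoxia replicates 1 and 3 were left out, 0 of 8 tested droplet protein genes were higher and 3 lower with siControl, and HSD17B11 (−0.72), LDAH (−0.63) and AUP1 (−0.22) stayed called while RAB18 (−0.12) did not gain a call. The siControl call of AUP1 ended without siControl hypoxia replicate 1 (adjusted p = 0.0684). HILPDA was higher, PLIN3 had 0.19 with siNOX4 (not called) and 0.30 with siControl (called), and PLIN2 had 1.16 and 1.09 (not called). The droplet genes of this study thus did not move as 1 group.

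Among 14 tested genes of fatty acid activation and triglyceride synthesis, 5 rose and 4 fell with siNOX4, and 6 rose and 5 fell with siControl. Enzymes of the same step moved apart. AGPAT2, an acyltransferase that makes phosphatidate, rose by 0.84 with siNOX4 and 1.13 with siControl on the log2 scale, while its relative AGPAT4 had log2 fold changes of −1.35 and −1.87. Of the lipins, LPIN3 rose by 1.40 and 0.88 (adjusted p = 3.5e-06 and 1.1e-04, edgeR), opposite to LPIN1. With all libraries LPIN2 was called with siControl only (−1.30, adjusted p = 0.0047, edgeR, against 0.37 with siNOX4). The siControl value became 0.08 without siControl normoxia replicates 1 and 3, while the siNOX4 value stayed at 0.37. With siNOX4 LPIN2 was called higher in 4 of 21 alternative fits. AGPAT3, the most abundant gene called in neither comparison, had 0.08 and 0.17, and it was called higher with siControl without normoxia replicate 2 (0.21, adjusted p = 0.0204). For siControl the count without normoxia replicates 1 and 3 was 5 higher and 4 lower, with AGPAT2 at 0.80, AGPAT4 at −1.64, LPIN3 at 0.85 and AGPAT3 at 0.10 (adjusted p = 0.397).

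In fatty acid synthesis, elongation and desaturation, 4 of 20 tested genes rose and 9 fell with siNOX4, and 9 rose and 6 fell with siControl. The siControl count without normoxia replicates 1 and 3 was 4 higher and 8 lower of 20. Neighbours of FASN in the pathway split. ACACA, which makes malonyl-CoA for FASN, was called lower with siNOX4 (−0.38, adjusted p = 0.0172) and not with siControl with all libraries (−0.25, adjusted p = 0.0931). It was called lower with siControl as well without normoxia replicates 1 and 3 (−0.49, adjusted p = 9.0e-04), and also without replicate 1 alone. ACLY, which supplies acetyl-CoA, was called higher with siControl (0.36, adjusted p = 0.0032) and not with siNOX4 (0.15, adjusted p = 0.142) with all libraries. With siNOX4 ACLY was called higher in 3 of 21 alternative fits. Its siControl value without replicates 1 and 3 was 0.20. MCAT, of mitochondrial fatty acid synthesis, rose by 1.48 with siNOX4 and 0.95 with siControl, and the elongase gene ELOVL2 had −1.22 and −1.46. Without replicates 1 and 3 MCAT was at 1.35 with siControl, and ELOVL2 was at −0.65 and no longer called (adjusted p = 0.106). SCD5, the other stearoyl-CoA desaturase gene, was called higher with siControl (1.11, adjusted p = 0.0112) and not with siNOX4 (0.21), and the siControl call ended without replicates 1 and 3 (adjusted p = 0.147). SREBF1, a regulator of lipid synthesis genes, was called with siControl (0.36, adjusted p = 0.0189) but not with siNOX4 (0.18, adjusted p = 0.207) with all libraries. Over 21 alternative fits SREBF1 gained a call with siNOX4 in 3 and lost the call with siControl in 6. Without those libraries its values were 0.18 with siNOX4 and 0.08 with siControl. MLXIPL, the gene of the sugar-sensing factor ChREBP, fell on few counts (−2.92 and −2.05, and −1.98 with siControl without those libraries). MID1IP1, an activator of ACACA, was not called with all libraries (−0.15 and 0.02, and −0.09 with siControl without those libraries). MID1IP1 was called lower with siNOX4 in 2 of 21 alternative fits.

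Uptake genes divided as well, with 2 of 9 higher and 3 lower with siNOX4 and 4 higher and 3 lower with siControl. In siControl cells the count was 2 higher and 5 lower of 11 without siControl normoxia replicates 1 and 3. VLDLR, a lipoprotein receptor, rose to 75.7 ± 3.35 CPM in siNOX4 hypoxia, against 45.4 ± 2.45 CPM in siNOX4 normoxia (log2 fold change 0.74), and to 74.2 ± 2.45 CPM in siControl hypoxia, against 34.2 ± 8.94 CPM in siControl normoxia (1.12). SLC27A4, a fatty acid transport protein, rose by 1.30 and 0.73 on the log2 scale, and DBI, the acyl-CoA binding protein gene, had −1.12 and −0.72. SLC27A1 was not called with all libraries (−0.09 and −0.20). The siControl values in the fit without those libraries were 0.74 for VLDLR, 1.40 for SLC27A4 and −0.76 for DBI, and SLC27A1 was called lower at −0.38 (adjusted p = 0.0113). SLC27A1 was also called lower without replicate 3 alone (−0.31, adjusted p = 0.0337).

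Oxidation genes held the largest falls, away from the CPT1A step itself. PDK4, a kinase that restrains pyruvate dehydrogenase and is induced when fat is burnt, had 1.81 ± 0.186 CPM in siNOX4 hypoxia and 1.44 ± 0.608 CPM in siControl hypoxia, against 54.8 ± 0.832 CPM in siNOX4 normoxia and 89.5 ± 31.8 CPM in siControl normoxia. Its log2 fold changes were −4.91 (SE 0.30, adjusted p = 2.2e-07) and −5.94 (SE 0.31, adjusted p = 1.2e-07) with siNOX4 and siControl by edgeR. PPARGC1A, a coactivator of mitochondrial genes, had −3.44 and −4.25, and PPARA, a receptor that drives oxidation genes including CPT1A, had −0.78 and −1.16. ECI1, an isomerase, and ACAD9, an acyl-CoA dehydrogenase and complex I assembly factor, rose by 0.58 and 1.09 on the log2 scale with siNOX4 and by 1.12 and 0.87 with siControl. CPT2, the partner of CPT1A on the inner membrane, also rose (2.73 and 1.26), from under 4 CPM in every group. ECHS1, a hydratase of this pathway, was not called (−0.12 and 0.19), though without siControl normoxia replicate 2 it was called higher with siControl (0.27, adjusted p = 0.0116). In all, 6 of 26 tested oxidation genes rose and 8 fell with siNOX4, and 8 rose and 9 fell with siControl. In siControl cells 6 were higher and 10 lower without siControl normoxia replicates 1 and 3. The siControl values in that fit were −5.28 for PDK4, −3.76 for PPARGC1A, −0.78 for PPARA, 0.59 for ECI1, 1.16 for ACAD9, 2.06 for CPT2 and 0.05 for ECHS1, all called except ECHS1 (adjusted p = 0.706).

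**Figure D4:**
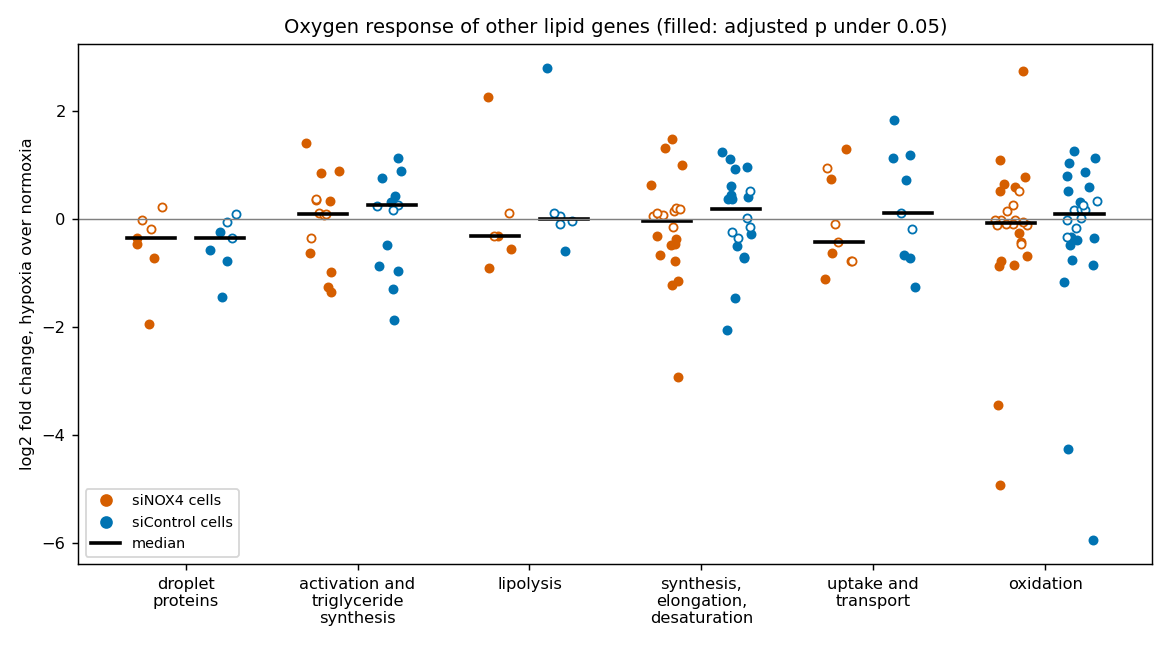
Log2 fold change of hypoxia over normoxia for the 82 tested pathway genes in 6 lists, siNOX4 cells left of siControl cells, with filled points for an adjusted p under 0.05 by edgeR and black bars for the median of a list. The points of most lists spread to both sides of 0, G0S2 lies highest among lipolysis genes, and PDK4 and PPARGC1A lie lowest among oxidation genes.

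For NOX4 silencing in normoxia, 8 of the 82 pathway genes were called higher and 4 lower, beside 3.97% and 11.0% of all genes. The higher ones included ABHD5 (0.59, adjusted p = 0.0350), and the lower ones LPIN2 (−1.56, adjusted p = 0.0302) by edgeR. A fit of only the groups compared called 0 pathway genes in normoxia, but also 0 of all genes. In hypoxia, and for the difference between the oxygen responses, 0 of the 82 were called, beside 0.00% of all genes.

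Patterns across the 12 libraries were compared by the root mean square difference of log2 CPM after centring each gene on its mean, among 11058 genes with a mean of at least 5 CPM. Among the 10 genes themselves, CPT1A and LPIN1 were the closest pair (0.151), followed by FASN and LPIN1 (0.157), DGAT2 and PNPLA2 (0.166) and PLIN3 and PNPLA2 (0.182). HILPDA and SCD were 0.852 apart. The genes nearest to HILPDA were SSBP4 (0.0797), ENC1 (0.109) and RELT (0.116), and those nearest to FASN were NOC2L (0.0511), NUP98 (0.0532) and BRPF1 (0.0569). A small difference also follows from a gene that varies little, as FASN does. All these differences include siControl normoxia replicates 1 and 3, whose part in them was not tested. For DGAT2 and PNPLA2, replicate 2 was at 1.80 and 1.58 times the mean of replicates 1 and 3.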

How the data were processed

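Per the file headers, the authors deposited read counts for each gene and library, which are whole numbers, and FPKM, which they computed with a gene length of their own. Bowtie 0.12.2 and mouse genome builds are named in the submitters' processing notes, with no role. The counter and annotation used are not stated there. The coordinates of all 58735 genes matched GENCODE 29 (GRCh38).

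A quasi-likelihood model (edgeR 4.0.16, R 4.3.3) was fitted to the counts of all 12 libraries with 1 mean per group, TMM scaling, the filterByExpr filter by group and an F test, with 8 residual degrees of freedom. P-values were adjusted by Benjamini-Hochberg over the 17277 genes tested, and a gene was called at an adjusted p under 0.05. Groups without overlap were read on CPM. Replicates are separate transfections per the labels, and none were duplicates of each other. The limit given for a count of 0 covers counting error only, as PCR copies cannot be told from molecules. The fit was tested on simulated counts with the same spread in every group. That test does not cover the wider spread of siControl normoxia.

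All 10 genes are named. A thyroid marker is not reported here. Of each pathway list the rule named the called genes of at least 5 CPM with the largest rise and fall in each oxygen comparison, and the most abundant gene called in neither. PLIN4, LDAH, AUP1, CPT2, PPARGC1A, PPARA, MLXIPL, SREBF1, ACACA, ACLY, LPIN2 and ABHD5 were named after their values were seen. Members and lists were chosen with earlier results of these data known.

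Alternatives were DESeq2 size factors, upper-quartile scaling, no filter, a filter of 5 CPM in 3 libraries, a replicate block, DESeq2 1.42.0, a fit of only the groups compared, leaving out each library, leaving out siControl normoxia replicates 1 and 3, and limma-trend (limma 3.58.1) on log2(FPKM + 1).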

Additional observations from a re-analysis of the deposited data

How the results depend on the processing

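The falls of LPIN1, SCD and CPT1A in hypoxia were called with either siRNA under every alternative run, and so were those of FASN and the rise of HILPDA with siControl. All genes called for hypoxia in siNOX4 cells numbered 9776 with all libraries, 11403 in the fit of only the groups compared and 8446 to 12131 with 1 library left out. Members called there numbered 5, 9 and 3 to 9 in the same order. For siNOX4 in normoxia they numbered 1, against 0 with upper-quartile scaling, in the fit of only the groups compared, without replicates 1 and 3 and by limma-trend, 3 without a filter, and 0 to 6 with 1 library left out. Pathway genes called there numbered 12, against 26 without a filter, 19 by DESeq2, 0 in the fit of only the groups compared, without replicates 1 and 3 and by limma-trend, and 0 to 46 with 1 library left out. All genes called there numbered 2593, against 4696 without a filter, 4081 by DESeq2, 0 in the fit of only the groups compared, 9 without replicates 1 and 3, 50 by limma-trend and 2 to 9866 with 1 library left out (9866 without siControl normoxia replicate 2). For siNOX4 in hypoxia all genes called numbered 0, against 15 without a filter, 2 by DESeq2, 8 in the fit of only the groups compared, 27 without replicates 1 and 3 and 0 to 12 with 1 library left out. For the difference between oxygen responses 0 pathway genes were called, against 7 without a filter and 1 by DESeq2, and 0 to 45 with 1 library left out. All genes called for it numbered 0, against 2107 without a filter, 59 by DESeq2, 2 without replicates 1 and 3 and 0 to 7696 with 1 library left out, with 0 to 4 of the 10 members. Upper-quartile scaling shifted the median of all genes to 0.11 in either oxygen comparison and raised the share of calls that were higher to 57.2%, against 48.2% with TMM, in siControl cells, and to 56.7%, against 50.8%, in siNOX4 cells. Without replicates 1 and 3 hypoxia in siControl cells reversed for PNPLA2 (−0.16), DGAT2 (−0.45), MID1IP1 (−0.093), LPIN2 (0.084) and ABHD5 (−0.38), and upper-quartile scaling reversed RAB18 (0.066). In siNOX4 normoxia the same omission reversed HILPDA (−0.093), PLIN2 (−0.48), PLIN3 (−0.11), PNPLA2 (−0.044), DGAT2 (−0.082), SCD (−0.21) and CPT1A (0.023), and upper-quartile scaling reversed FASN (0.0047). In hypoxia upper-quartile scaling reversed SCD for siNOX4 (0.0076). For the difference between oxygen responses, leaving out replicates 1 and 3 reversed HILPDA (0.17), PLIN3 (0.15), SCD (0.20) and CPT1A (−0.051). Single libraries left out also reversed DGAT2 (−0.11 to 0.41), ABHD5 (−0.095 to 0.34), LIPE (−0.021 to 0.23) and MID1IP1 (−0.059 to 0.085) for hypoxia in siControl cells, LIPE (−0.029 to 0.18) in siNOX4 cells, PLIN2 (−0.14 to 1.31) and FASN (−0.10 to 0.018) for siNOX4 in normoxia, SCD (−0.052 to 0.026) and PLIN3 (−0.0068 to 0.069) for siNOX4 in hypoxia, and LPIN1 (−0.11 to 0.043) and PLIN2 (−0.79 to 0.66) for the difference between responses. The replicate numbers do not pair the libraries (correlations of deviations from −0.026 to 0.15), so the replicate block is an alternative only. With the block DGAT2 was called lower for hypoxia in siNOX4 cells (−0.50, adjusted p = 0.0462), and PLIN2 reversed in the difference between responses (−0.028). The filter of 5 CPM left PLIN2 untested, and the cause of these changes was not tested. Depth limits PLIN2 and NOX4, counted at most 30 and 17 times per library.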
